A study of Mus musculus with 80 samples.

Results

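The 10 genes described here, Hmox1, Nqo1, Gclm, Gclc, Srxn1, Txnrd1, Slc7a11, Mt1, Mt2 and Gsta4, belong to the antioxidant and metal response. They were taken by symbol from the 25965 rows of an expression table, and each symbol occurred once in it. The table came from RNA-seq of wild-type E14 mouse embryonic stem cells (ESCs) moved from serum to 2i, with 3 libraries in each of 4 groups. The serum group grew in medium with fetal calf serum and LIF. The other 3 groups had spent 6, 24 or 72 h in serum-free N2B27 with LIF, the MEK inhibitor PD0325901 and the GSK3 inhibitor CHIR99021. Serum removal, the change of basal medium and the inhibitors began together, so their parts in any change cannot be told apart. H3K9me2 ChIP-seq of serum, 24 h 2i and long-term 2i (LT2i) cells, with 2 bound libraries and 1 input each, gave a further readout of the same genes.

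Cells sense oxidants and electrophiles through KEAP1, which normally hands the transcription factor NRF2 (gene Nfe2l2) over for degradation. When KEAP1 is modified, NRF2 accumulates, pairs with a small MAF protein and binds antioxidant response elements (AREs), sites from which BACH1 can displace it. Metallothioneins are small cysteine-rich proteins that bind zinc and copper, and the zinc sensor MTF1 drives them through metal response elements (MREs). Serum and defined media differ in the metals and antioxidants that they supply to cultured ESCs.

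The promoters of 2 metal response genes, Mt1 and Mt2, and of 2 NRF2-type genes, Srxn1 and Txnrd1, are shown because they hold matches to the elements by which these genes are classed. RefSeq windows (GRCm38.p6) from 250 bases before to 50 bases after the start were held for 7 of the 10 genes. Windows for Hmox1, Gclc and Gsta4 were not used here. Capitals mark matches on either strand to the ARE core TGACNNNGC or the MRE core, searched as TGCACNC or TGCGCNC. The Mt1 window lies at chr8:94178839-94179138 and the Mt2 window at chr8:94172368-94172667, both on the plus strand. The Srxn1 window lies at chr2:152105274-152105573 and the Txnrd1 window that holds the start used in the expression table at chr10:82858956-82859255, also on the plus strand.
Mt1 promoter: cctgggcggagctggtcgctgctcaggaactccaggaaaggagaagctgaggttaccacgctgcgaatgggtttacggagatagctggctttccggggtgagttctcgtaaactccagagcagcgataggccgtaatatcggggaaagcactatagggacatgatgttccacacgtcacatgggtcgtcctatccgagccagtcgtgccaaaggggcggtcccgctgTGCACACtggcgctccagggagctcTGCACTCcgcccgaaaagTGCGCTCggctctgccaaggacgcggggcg
Mt2 promoter: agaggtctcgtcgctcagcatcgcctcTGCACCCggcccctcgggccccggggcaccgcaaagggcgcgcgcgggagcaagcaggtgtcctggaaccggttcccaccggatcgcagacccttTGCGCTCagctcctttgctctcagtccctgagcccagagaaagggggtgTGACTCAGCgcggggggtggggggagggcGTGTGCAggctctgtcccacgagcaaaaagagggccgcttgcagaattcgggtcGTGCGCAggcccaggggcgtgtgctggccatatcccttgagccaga
Srxn1 promoter: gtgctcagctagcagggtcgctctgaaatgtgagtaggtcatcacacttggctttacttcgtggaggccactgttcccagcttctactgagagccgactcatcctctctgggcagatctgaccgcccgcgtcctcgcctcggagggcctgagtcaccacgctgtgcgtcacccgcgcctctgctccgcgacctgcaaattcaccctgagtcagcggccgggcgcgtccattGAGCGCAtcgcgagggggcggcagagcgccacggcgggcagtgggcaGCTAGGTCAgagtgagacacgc
Txnrd1 promoter: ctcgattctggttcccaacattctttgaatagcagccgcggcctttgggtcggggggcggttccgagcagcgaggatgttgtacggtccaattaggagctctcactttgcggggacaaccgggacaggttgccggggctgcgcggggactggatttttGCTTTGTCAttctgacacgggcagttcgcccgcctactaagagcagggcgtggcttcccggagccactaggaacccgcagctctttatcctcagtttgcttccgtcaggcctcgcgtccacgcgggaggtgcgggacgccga

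The Mt1 window held 3 MRE matches and no ARE match. The Mt2 window held 4 MRE matches and 1 ARE match, which spans positions -79 to -71 from the start. Of 32851 promoter windows of the same length, 25.7% held at least 1 MRE match, 1.97% at least 3 and 0.517% at least 4. An ARE match was found in 12.4% of all windows, and in 1 window each of Srxn1, Txnrd1, Gclm and Mt2. The Srxn1 match lies at positions 28 to 36 and the Txnrd1 match at positions -92 to -84, counted from the base at the start as 0. The Gclm window held 3 MRE matches besides, 1 of which overlapped its ARE match, and the Srxn1 window held 1. Neither motif was found in the windows of Nqo1 and Slc7a11 or in the other 2 windows of Txnrd1. A match is a description of these letters and was not tested as a binding site. Other spellings of the elements, and sequence outside these windows, were not searched, so a window without a match does not show that a gene lacks the element.

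Expression is given as the deposited log2 value, which the authors had corrected for gene length and library depth. Every library had the same 75th percentile, 2.51, and the total reads per library are unknown. In serum the levels of the 10 genes differed widely. Mt2, Gsta4, Mt1 and Txnrd1 had mean values of 7.77 ± 0.06, 7.49 ± 0.24, 6.98 ± 0.04 and 6.50 ± 0.04 (SD, n = 3), in the 98.3rd percentile of all rows or above. Hmox1 (5.31 ± 0.07), Gclm (4.39 ± 0.07), Gclc (4.01 ± 0.03), Nqo1 (3.32 ± 0.30) and Srxn1 (2.81 ± 0.07) followed. Slc7a11, the cystine importer that feeds glutathione synthesis, was far below them at -3.02 ± 0.28. The serum libraries of no gene overlapped those of its neighbours in this order, and the closest neighbours relative to their spread were Mt2 and Gsta4.

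At 6 h the mean of each of the 10 genes was above serum, as in 51.0% of all tested genes. For Gsta4 the difference was only 0.06 (adjusted p = 0.938, limma). Between 6 and 24 h Hmox1, Srxn1, Txnrd1, Gclm and Gclc fell, with Srxn1 still above serum, and the difference of Nqo1 (-0.54, adjusted p = 0.119, limma) did not pass the test. Mt1, Mt2 and Gsta4 stood higher at 72 h than in serum. By 72 h Mt1 was 3.73-fold and Mt2 2.51-fold above serum, while Txnrd1, Gclc and Gclm were at 0.647, 0.710 and 0.694 of their serum level.

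**Figure D1:**
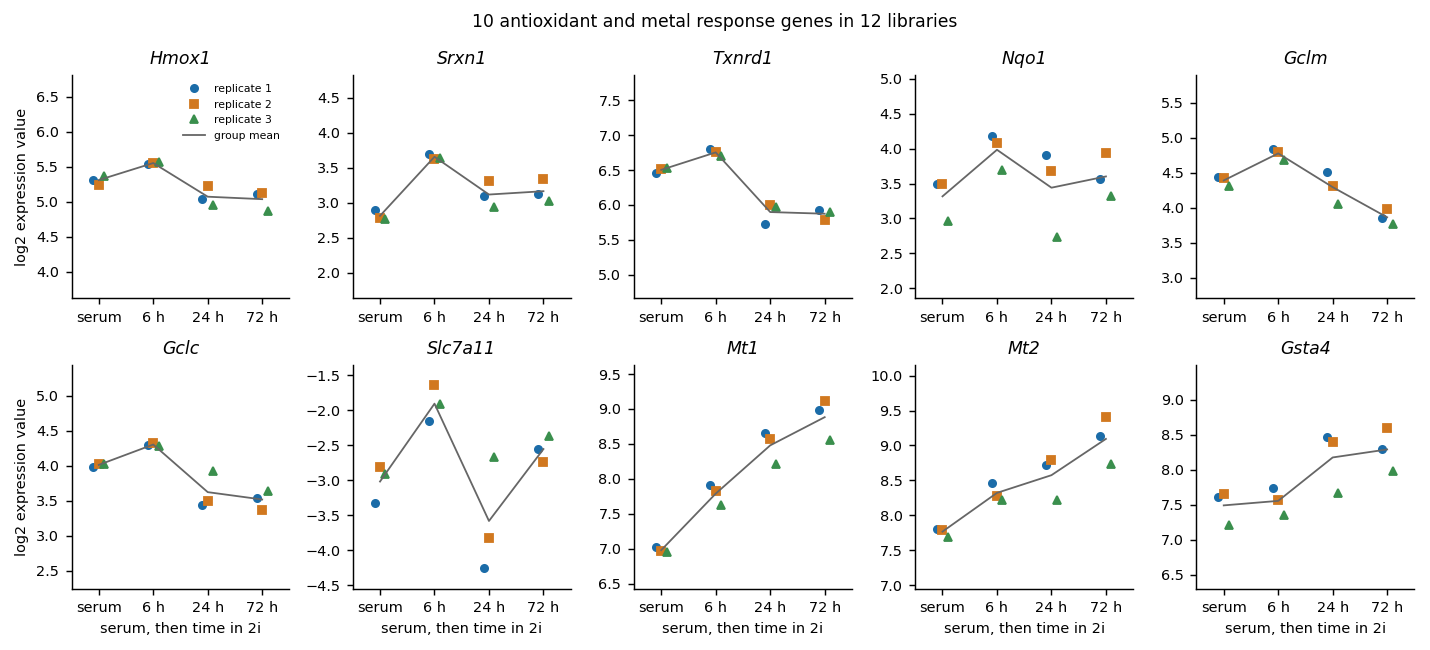
Log2 expression value (vertical axis, with equal spans in all panels) of the 10 genes in serum and after 6, 24 and 72 h of 2i. Each point is 1 library, coloured by replicate number, and the line joins group means. All but Gsta4 peak or step up at 6 h, and Mt1 and Mt2 go on to values of 8.55 to 9.41 at 72 h.

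The first question was which of these genes had responded within 6 h. In limma's moderated test over 11376 genes (mean log2 value of 0 or more over the 12 libraries, Benjamini-Hochberg adjustment, threshold 0.05), 9 of the 10 genes were tested and 2, Srxn1 and Mt1, were called, both higher. At 6 h, 8.24% of all tested genes were called higher and 6.01% lower. In 9 of the 10 genes, all but Gsta4, the 3 libraries at 6 h lay above the 3 serum libraries, a separation found upward in 23.5% of all tested genes. The median change of the 10 genes was 0.47, beside 0.01 over all tested genes. The same numbers ran through serum and 6 h libraries, and samples with the same number deviated together. With replicate number as a block 5 genes were called at 6 h, all higher, against 11.3% of tested genes called higher in that fit. The 3 added were Nqo1 (adjusted p = 0.0135), Gclm (adjusted p = 0.0134) and Mt2 (adjusted p = 0.0193, limma). The block fit held all 12 libraries, so its block and its spread come also from groups that the numbers did not pair. These 3 added calls carry that limit. Without the third 24 h library, which stood apart from its group, 6 genes were called at 6 h, Gclc (adjusted p = 0.0439, limma) among them, and 10.7% of all tested genes were called higher. A fit of only the serum and 6 h libraries called 8 of the 9 tested genes, all but Gsta4 and all higher, where 15.5% of all tested genes were called higher.

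Srxn1 encodes sulfiredoxin, which repairs over-oxidised peroxiredoxins, and made the clearest early response. Its values in serum were 2.89, 2.78 and 2.77, and after 6 h they were 3.70, 3.63 and 3.65. After 24 h it stood at 3.10, 3.31 and 2.94, and after 72 h at 3.13, 3.34 and 3.03. Each later library was above every serum library, but none reached the 6 h values. The change at 6 h was 0.84 ± 0.12 (SE), or 1.79-fold (adjusted p = 0.000481, limma), and the call held whichever of the 12 libraries was left out. Between 6 and 24 h Srxn1 fell by 0.54 ± 0.12 (adjusted p = 0.00244, limma). It was still called at 24 h (0.30 ± 0.12, adjusted p = 0.0384) and 72 h (0.35 ± 0.12, adjusted p = 0.0250, limma). The 24 h call is weak. It was lost without any single serum or 6 h library, without the first or second 24 h library or without the first 72 h library (adjusted p up to 0.153, limma), and the change turned to -0.05 once a trend with gene span was removed. The 72 h call was lost without the second or the third serum library or the first or second 72 h library (adjusted p up to 0.0994, limma).

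Txnrd1, the cytosolic thioredoxin reductase that restores thioredoxin with NADPH, showed the largest fall of the 9 tested genes. It was at 6.46, 6.51 and 6.53 in serum and at 6.80, 6.76 and 6.70 after 6 h. It then stood at 5.73, 6.00 and 5.96 after 24 h and at 5.93, 5.79 and 5.90 after 72 h. The 6 h libraries were all above serum and the later ones all below it. The step of 0.25 ± 0.10 at 6 h did not pass the test (adjusted p = 0.149, limma). From 6 to 24 h the level fell by 0.85 ± 0.10, to 0.554 of its 6 h value (adjusted p = 7.77e-05, limma). Against serum the changes were -0.60 ± 0.10 at 24 h (adjusted p = 0.000463) and -0.63 ± 0.10 at 72 h (adjusted p = 0.000415, limma). Both calls held without each of the 12 libraries and under 3 other scalings.

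Gclc and Gclm encode the catalytic and modifier subunits of glutamate-cysteine ligase, the rate-limiting enzyme of glutathione synthesis. Gclc was at 3.98, 4.03 and 4.03 in serum, 4.30, 4.32 and 4.29 after 6 h, 3.45, 3.50 and 3.92 after 24 h and 3.54, 3.37 and 3.64 after 72 h. Gclm was at 4.44, 4.42 and 4.31 in serum, 4.85, 4.80 and 4.68 after 6 h, 4.51, 4.32 and 4.06 after 24 h and 3.85, 3.98 and 3.76 after 72 h. For both subunits the 6 h libraries were the highest of the course and the 72 h libraries lay below all serum libraries. Neither passed the test at 6 h (Gclc 0.29 ± 0.13, adjusted p = 0.173; Gclm 0.39 ± 0.12, adjusted p = 0.0528, limma), though Gclm was called at 6 h under each of the 3 other scalings (0.36 to 0.43, adjusted p up to 0.0423, limma). From 6 to 24 h Gclc fell by 0.68 ± 0.13 (adjusted p = 0.00107) and Gclm by 0.48 ± 0.12 (adjusted p = 0.00539, limma). Gclc was below serum at 24 h (-0.39 ± 0.13, adjusted p = 0.0193) and at 72 h (-0.49 ± 0.13, adjusted p = 0.00696, limma). Without the second or the third serum library or the first or second 24 h library the 24 h call was lost (adjusted p up to 0.0735, limma). Gclm went on falling, by 0.43 ± 0.12 from 24 to 72 h (adjusted p = 0.0198, limma), and ended 0.53 ± 0.12 below serum (adjusted p = 0.00347, limma). The late step of Gclm was not called without the first or second 24 h library or the first or the third 72 h library (adjusted p up to 0.0725, limma), whereas both calls at 72 h against serum held without each library.

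Hmox1 encodes heme oxygenase 1, which opens heme into biliverdin, iron and carbon monoxide. It was at 5.32, 5.24 and 5.37 in serum and 5.54, 5.55 and 5.57 after 6 h, then at 5.04, 5.22 and 4.95 after 24 h and 5.12, 5.13 and 4.87 after 72 h. All 6 h libraries lay above serum and all later ones below it. No comparison with serum passed the test (adjusted p of 0.180, 0.0714 and 0.0518 at 6, 24 and 72 h, limma), and quantile normalization gave a call at 6 h (0.32, adjusted p = 0.0460, limma). The fall from 6 to 24 h, 0.48 ± 0.11, did (adjusted p = 0.00299, limma), and held without each of the 12 libraries. At 24 h Hmox1 was called lower after 2 of 3 other scalings, at -0.56 with the span trend removed and at -0.32 with quantile normalization. At 72 h it was called with the span trend removed (-0.36, adjusted p = 0.00917, limma).

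Nqo1, the quinone reductase often used as a readout of NRF2, had its highest mean at 6 h and a wide spread. It was at 3.49, 3.49 and 2.97 in serum, 4.18, 4.08 and 3.69 after 6 h, 3.91, 3.68 and 2.73 after 24 h and 3.56, 3.93 and 3.31 after 72 h. The third library was the lowest of every group, and only the 6 h group was free of overlap with serum. The changes of 0.67 ± 0.29 at 6 h (adjusted p = 0.165), 0.12 ± 0.29 at 24 h (adjusted p = 0.715) and 0.28 ± 0.29 at 72 h (adjusted p = 0.430, limma) did not pass the test. The 72 h value was 0.11 without the third serum library.

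Slc7a11 had a mean over the 12 libraries below the level tested and was given no main test. It was at -3.33, -2.81 and -2.92 in serum, -2.16, -1.65 and -1.92 after 6 h, -4.25, -3.83 and -2.67 after 24 h and -2.56, -2.75 and -2.36 after 72 h. The 6 h libraries were above every other library of the course. In a fit with no filter on low values the difference at 6 h was 1.11 ± 0.38 (adjusted p = 0.0855) and that from 6 to 24 h was -1.68 ± 0.38 (adjusted p = 0.00441, limma). These low values rest on few reads, whose number is unknown.

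**Figure D2:**
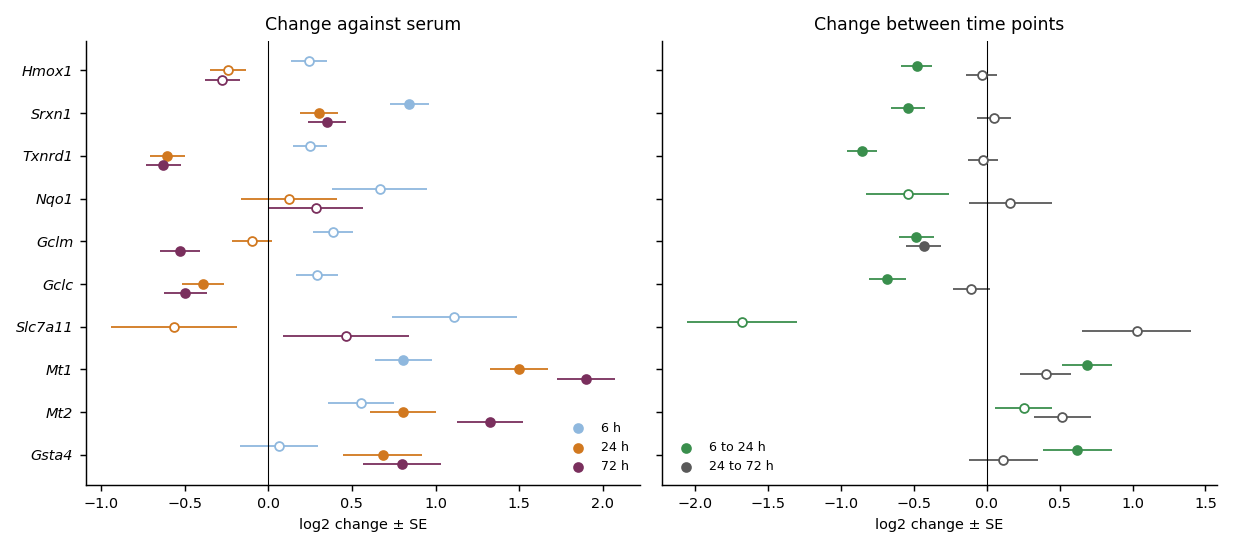
Log2 change with its SE for each gene, against serum at 6, 24 and 72 h (left) and from 6 to 24 h and from 24 to 72 h (right). Filled points passed limma's test at the adjusted threshold of 0.05 and open points did not. Slc7a11 was below the level tested, and its SEs come from the fit without a filter. Hmox1, Srxn1, Txnrd1, Gclm and Gclc have filled points left of 0 for the step from 6 to 24 h.

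Between 6 and 24 h, 5 of the 9 tested genes fell (Hmox1, Gclm, Gclc, Srxn1 and Txnrd1) and 2 were called higher (Mt1 and Gsta4), calls that quantile normalization ended (-0.03 and -0.07). Over all tested genes 28% were called lower and 31.5% higher for that step. Each of the 5 falls held without any single library and under quantile normalization, median centring and removal of the span trend. From 24 to 72 h 1 gene, Gclm, was called, lower. The shares of all tested genes for that step were 14.6% lower and 15.2% higher. With replicate number as a block Nqo1 was also called lower between 6 and 24 h (adjusted p = 0.0110, limma). Samples with the same number did not all deviate together for that step (correlations of 0.52, 0.04 and 0.59), so this call rests on a pairing that the data do not show.

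Mt1 and Mt2 lie side by side on chromosome 8, Mt2 at 94172618 to 94173567 and Mt1 at 94179089 to 94180325 (GRCm38, plus strand). Mt1 was at 7.02, 6.97 and 6.95 in serum, 7.91, 7.83 and 7.63 after 6 h, 8.66, 8.57 and 8.21 after 24 h and 8.98, 9.12 and 8.55 after 72 h. No library of a later time point overlapped serum, and the 24 h group lay wholly above the 6 h group. Mt2 was at 7.81, 7.80 and 7.70 in serum, 8.47, 8.28 and 8.22 after 6 h, 8.72, 8.79 and 8.22 after 24 h and 9.13, 9.41 and 8.74 after 72 h. Every 2i library of Mt2 was above serum, with the third 24 h library at the level of the 6 h group. Mt1 rose by 0.81 ± 0.17 at 6 h (adjusted p = 0.00870), 1.50 ± 0.17 at 24 h (adjusted p = 3.01e-05) and 1.90 ± 0.17 at 72 h (adjusted p = 4.70e-06, limma). Mt2 differed by 0.55 ± 0.20 at 6 h (adjusted p = 0.0930, limma), was called there under 2 of the 3 other scalings, and rose by 0.81 ± 0.20 at 24 h (adjusted p = 0.00439) and 1.33 ± 0.20 at 72 h (adjusted p = 0.000206, limma). The 72 h values of the pair stood above 99.8% of all rows. The calls of both at 24 and 72 h held without each library. The sources used here do not say how reads that match both paralogs were counted.

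At 24 h short genes and highly expressed genes were higher in general, and both metallothionein genes are of these kinds. The 836 tested genes with a span under 2000 bp had a median change of 0.62 at 24 h and 0.25 at 72 h, and the 303 genes with a mean level of 7 or more had 0.80 at 24 h and 0.36 at 72 h. At 6 h these medians were -0.02 and -0.03. With the span trend removed Mt1 was still 0.92 above serum at 24 h (adjusted p = 1.64e-05), and Mt2 was not called (0.19, adjusted p = 0.0974, limma). Quantile normalization gave 0.91 for Mt1 (adjusted p = 6.06e-05) and 0.08 for Mt2 (adjusted p = 0.459, limma). Under these scalings the step of Mt1 from 6 to 24 h was 0.09 and -0.03, no longer called, and Mt2 was lower at 24 h than at 6 h (-0.38 and -0.55). The rises at 72 h remained called in both, at 1.68 and 1.75 for Mt1 and at 1.08 for Mt2 in each.

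Gsta4, a glutathione transferase that acts on the lipid peroxidation product 4-hydroxynonenal, did not share the early step. It was at 7.61, 7.65 and 7.21 in serum, 7.74, 7.57 and 7.34 after 6 h, 8.46, 8.39 and 7.66 after 24 h and 8.29, 8.59 and 7.98 after 72 h. The 6 h values overlapped serum, the third 24 h library was only just above it and the 72 h libraries were clear of it. Gsta4 rose by 0.69 ± 0.24 at 24 h (adjusted p = 0.0251) and by 0.80 ± 0.24 at 72 h (adjusted p = 0.0148, limma). With a mean of 7.88 over the 12 libraries, it is among the 303 genes with a mean level of 7 or more. Their median change was 0.80 at 24 h and 0.36 at 72 h, so the 24 h rise of Gsta4 was below that of its class. The 24 h call was lost without the third serum library or the first or second 24 h library (adjusted p up to 0.100) and under quantile normalization (0.06, adjusted p = 0.609, limma). The 72 h call was lost without the third serum library or the second 72 h library (adjusted p up to 0.0650, limma) and held under the 3 other scalings. The step from 6 to 24 h (0.62 ± 0.24, adjusted p = 0.0401, limma) was lost without 7 of the 12 libraries taken singly (adjusted p up to 0.140, limma) and turned to -0.07 under quantile normalization (adjusted p = 0.580, limma). These libraries were the first and second serum, the second and the third 6 h, the first and second 24 h and the first 72 h library.

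At 24 h, then, 4 genes were called higher (Srxn1, Mt1, Mt2 and Gsta4) and 2 lower (Gclc and Txnrd1), where 33.6% of all tested genes were called higher and 29.1% lower. At 72 h the same 4 were called higher and Gclm, Gclc and Txnrd1 lower, where the shares were 24.5% and 26%. A fit of only the 6 libraries compared called 3 genes at 24 h, Txnrd1, Mt1 and Mt2, and the other 3 missed the threshold (adjusted p from 0.0561 to 0.0992, limma). In that fit 29% of all tested genes were called higher and 25.3% lower. The median change of the 10 genes was 0.01 at 24 h and 0.32 at 72 h, beside 0.10 and -0.01 over all tested genes. These counts are near the background, and it is the order in time and the size of single genes that describe the group.

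Among the regulators of these genes, Nfe2l2 rose at every time, by 0.42, 0.71 and 1.11 at 6, 24 and 72 h (adjusted p = 0.0146 at 6 h, limma), from 3.97 ± 0.04 in serum to 5.09 ± 0.17 (SD, n = 3). Keap1 rose by 0.64 at 6 h and stayed there (0.56 and 0.54, each called). Bach1, the repressor at AREs, rose by 1.16 at 6 h, was not called at 24 h (0.18, adjusted p = 0.236, limma) and was 1.05 above serum at 72 h. Mtf1 was not called against serum at any time (0.17, -0.26 and 0.19), and its levels of 1.25 ± 0.12 in serum and 1.44 ± 0.16 at 72 h lay within 1.11 to 1.58. At 24 h Mtf1 was lower, at 0.99 ± 0.23. It was called lower from 6 to 24 h (-0.42, adjusted p = 0.0249) and higher from 24 to 72 h (0.44, adjusted p = 0.0380, limma). Of the 11 regulators of NRF2 tested, a list without Mtf1, 5 rose and 1 fell at 6 h, and 6 rose and 1 fell at both 24 and 72 h. Over all tested genes 8.24% were called higher and 6.01% lower at 6 h, 33.6% and 29.1% at 24 h, and 24.5% and 26% at 72 h. The 1 regulator that fell at 6 h was Maff, a small MAF partner of NRF2, named after its value was seen (-1.67). Between 6 and 24 h 4 of these 11 fell, Bach1 (-0.98), Mafg (-0.67), Cul3 (-0.54) and Nfe2l1 (-0.35), the last 3 also named after their values were seen, and 3 rose.

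Other enzymes of the same pathways were called mostly at 24 and 72 h, and the shares of all tested genes called, given above for each time, are the background for their counts. Of 21 tested genes of glutathione synthesis and use, 2 were called at 6 h, both higher, a share near the 8.24% of all tested genes, and 15 were higher at 24 h and 13 at 72 h. None was lower at any of these times, also at an unadjusted p under 0.05 (limma). Gss, which performs the second step of glutathione synthesis after the ligase made of Gclc and Gclm, rose by 2.39 at 72 h, Gstm2 by 1.53 and Gsta3 by 1.48. In the thioredoxin system 1, 8 and 4 of 12 tested genes were higher at 6, 24 and 72 h, and none was lower, also at an unadjusted p under 0.05 (limma). Txnip, which binds and inhibits thioredoxin, rose by 1.38 at 72 h, Msra by 0.79 and Prdx3 by 0.66.

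Of the 11 genes that supply NADPH, 1 was called at 6 h, 8 were higher and 2 lower at 24 h, and 5 were higher and 1 lower at 72 h. Idh1 (1.82), Idh2 (1.69) and Me1 (1.38), which reduce NADP+ outside the pentose phosphate pathway, had the largest changes at 72 h. Of 6 tested genes for superoxide and peroxide removal, none was called by limma at 6 h (1 at an unadjusted p under 0.05), 3 were higher at 24 h and 4 at 72 h, led by Gpx1 (1.24), Cat (1.21) and Sod2 (1.19). How far the general rise of short and abundant genes at 24 h enters these counts was not tested.

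Of 13 genes of heme and iron handling, 2 rose and 1 fell at 6 h, 6 rose and 3 fell at 24 h, and 5 rose and 2 fell at 72 h. Over all tested genes, 33.6% were called higher and 29.1% lower at 24 h, and 24.5% higher and 26% lower at 72 h, and with 13 genes nothing particular to the list is read from its counts. Blvrb (1.62) and Blvra (0.95), the biliverdin reductases downstream of heme oxygenase, were higher at 72 h and the iron exporter Slc40a1 was lower (-1.01). Among 13 tested genes of zinc and metal handling, 1 rose and 1 fell at 6 h, 3 rose and 6 fell at 24 h, and 5 rose and 2 fell at 72 h, to be read against the same shares. Among zinc transporters of the Slc39 family, Slc39a1 rose (1.27) and Slc39a10 (-0.99) and Slc39a7 (-0.52) fell at 72 h. Slc39a6 was not called (-0.15). Slc39a8 and Slc39a14 did not reach the filter on mean level and are in none of these counts. From serum to 72 h their means went from 0.6 to -1.9 and from 2.4 to -1.9. Mt4, a low-level metallothionein that went from -1.58 ± 1.30 to 1.88 ± 0.45 after 72 h (SD), is 1 of the 5 counted as rising. Its mean level reached the filter only through the 72 h group, so its place in that count is decided by the change itself and is no support for it. Atp7a, a copper transporter counted as falling at 24 h (-2.45), would likewise not reach the filter without its highest group, 6 h.

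The Atf4 program, the amino acid and stress response that also controls Slc7a11 in many cells, was the most uniform of the lists. Of 10 tested genes 8 were higher at 6 h and all 10 at 24 and 72 h, with median changes of 0.85, 2.14 and 1.49. Slc7a11, which is not in this list and was below the level tested, differed from serum by 1.11, -0.56 and 0.46 at these times. Atf3 (2.27), Asns (2.25) and Ddit4 (1.72) had the largest changes at 72 h. Of 11 genes of heat shock and oxidative damage, 1 was higher at 6 h, 3 were higher and 1 lower at 24 h, and 2 were higher and 3 lower at 72 h, counts near or below those shares of all tested genes. Hsph1 (-1.59), Ucp2 (1.11) and Hsp90aa1 (0.49) changed most at 72 h.

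**Figure D3:**
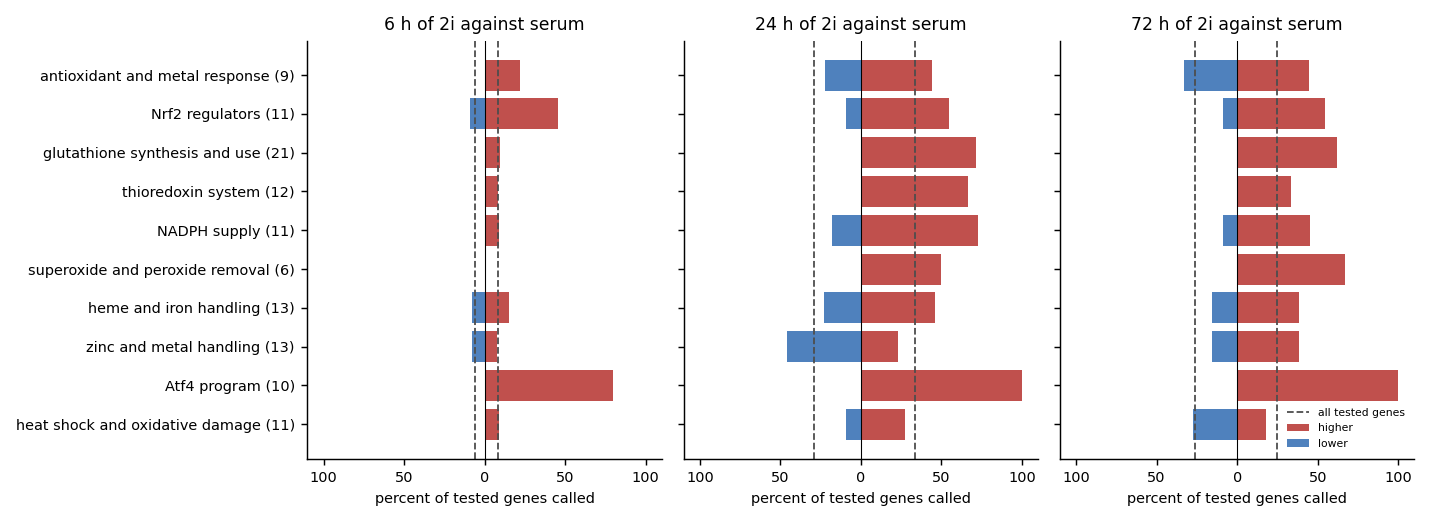
Percent of the tested genes of each list (number tested in parentheses) called higher, to the right, or lower, to the left, than in serum after 6, 24 and 72 h of 2i. Dashed lines give the same shares over all tested genes, 8.24% and 6.01% at 6 h. The Atf4 program reaches 10 of 10 genes at 24 h and 72 h.

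The labels were checked against markers. All 10 pluripotent cell markers were tested and their summed linear level was 1234 to 1264 in serum, 1056 to 1129 at 6 h, 996 to 1422 at 24 h and 1189 to 1522 at 72 h. At 6 h 3 were higher and 4 lower, and at 72 h 5 were higher and 3 lower, Nanog (1.72) and Lin28a (-3.91) among them. Of readouts of the 2 inhibitors, Etv4 was 5.69 lower and Cdx1 4.89 higher at 72 h. The targets of Wnt signalling in that list differed among themselves at 72 h, with Axin2 higher (0.58), Lef1 (-3.40) and T (-0.79) lower and Sp5 at -0.02. At 6 h Axin2 (1.34) and Sp5 (1.12) were called higher and Lef1 lower (-0.89), and T was not called (-0.18). Dusp6 (4.75 ± 0.10 in serum, -0.53 ± 0.14 after 6 h) and T passed the filter on mean level only through serum, their highest group, and Spry4 (4.84 and -3.31) and Egr1 (2.60 and -1.61) did not pass it. The counts for these readouts depend on that filter. Of the 13 readouts, 10 were tested, with 3 higher and 5 lower at 6 h, 1 higher and 7 lower at 24 h and 2 higher and 6 lower at 72 h. In serum, at 6, 24 and 72 h the summed level was 14.8 to 16.8, 14.7 to 16.2, 9.17 to 14.3 and 13.2 to 19.7 for primitive endoderm markers. For fibroblast and feeder markers it was 9.98 to 12.4, 10.9 to 11.1, 6.99 to 9.54 and 5.83 to 5.95, and for trophoblast markers 113 to 126 in serum, up to 142 at 6 h, 116 to 176 at 24 h and 99.8 to 140 at 72 h, a list whose Krt8, Krt18 and Tfap2c ESCs express. Their part in the changes was not tested. Within groups the libraries correlated at 0.943 or more, with the third 24 h library lowest.

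The genes nearest in pattern were sought over the 12 libraries, which share their scaling and the time course. Mt1 was close to Map1lc3b and Fkbp6 (Pearson r = 0.989 and 0.988), and Mt2 to Oat, Tmem92 and Lap3 (r = 0.972, 0.969 and 0.968). Txnrd1 was closest to Atic (r = 0.987), Gm216 and Sall3, and Gclc to Smpd4 (r = 0.982), Pigg and Fancd2. Hmox1 was closest to Fscn1 (r = 0.966) and Srxn1 to Pigk (r = 0.949). No member of the group was among the 3 nearest of another.

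H3K9me2, a histone mark of repressed chromatin, was read as the log2 ratio of bound over input reads summed over the 2-kb bins that touch each gene. Each condition had 2 bound libraries that share 1 input, so values are described without a test. Over 23602 genes the median ratio was -0.87 and -0.97 in serum, -0.96 and -0.98 after 24 h and -1.75 and -1.83 in LT2i. Over the gene body Slc7a11, the gene with the lowest expression, was the only member with more bound than input signal. Its ratios were 0.38 and 0.40 in serum, 0.44 and 0.44 after 24 h and 0.46 and 0.49 in LT2i. These rest on 797 to 1094 bound reads and lie above 87.5% to 90.1% of all genes. Over the start bin alone Slc7a11 had less bound than input signal in every library, on 6 to 11 bound reads. The start-bin ratios were -2.03 and -1.46 in serum, -0.81 and -0.21 after 24 h and -1.51 and -1.52 in LT2i. The ratio over the gene body of Slc7a11 did not fall in LT2i (0.09 higher in the mean), where the median change of all genes was -0.56. The libraries were scaled to a common depth, so these ratios show how the mark was distributed and not its total amount.

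Mt1 and Mt2 lay at the other end, with 0 to 2 bound reads over their bins in every library against 25 to 49 and 12 to 27 input reads. In serum both were among the lowest 2.1% of genes. At so few reads, a difference between conditions was not detectable. The other 7 genes had less H3K9me2 than input, and in each of the 7 the mean in LT2i was below serum, as in 76.8% of all genes. Over the start bin alone, with 0 to 15 bound reads, LT2i was below serum in 4 of the 7 and in 55.2% of all genes. Gsta4 fell from -2.01 and -1.85 to -3.43 and -3.42, Gclc from -0.77 and -0.78 to -2.19 and -2.10, and Nqo1 from -2.15 and -2.42 to -3.80 and -3.45. In LT2i these rest on 19 and 17, 105 and 95, and 7 and 10 bound reads, in that order. Srxn1 (-1.05), Txnrd1 (-0.97), Hmox1 (-0.80) and Gclm (-0.64) changed less in the mean, and the Gclm libraries overlapped. Their LT2i values rest on 6 and 4, 21 and 18, 15 and 18, and 13 and 25 bound reads. At 24 h, when Txnrd1 and Gclc were already below serum in expression, the mean ratios of the 7 genes differed from serum by -0.34 (Gclc) to 0.40 (Srxn1).

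**Figure D4:**
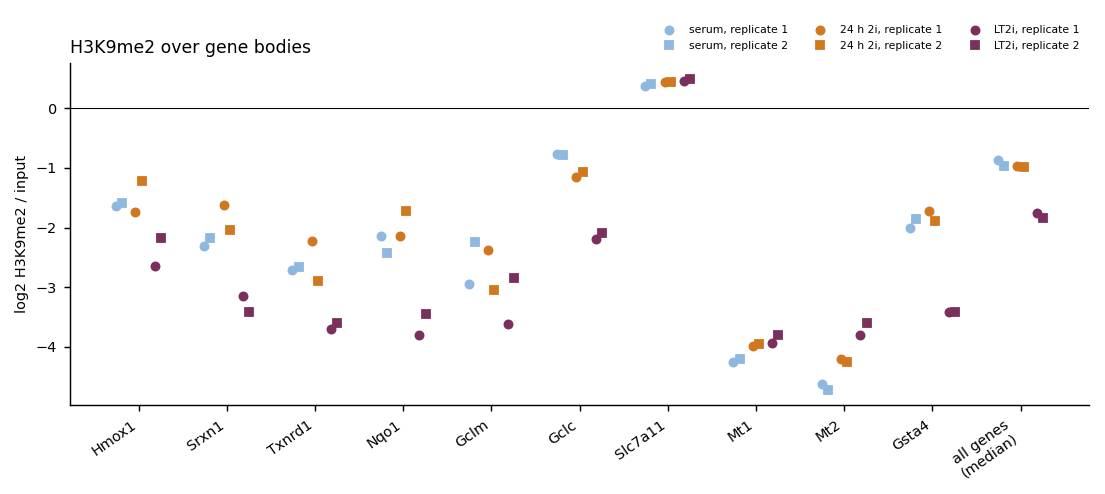
Log2 ratio of H3K9me2 bound reads over input reads (vertical axis) over each gene body in serum, 24 h 2i and LT2i, with 1 point for each of 2 bound libraries, and the median over all genes at the right. Slc7a11 lies above 0 in every library, and Mt1 and Mt2 rest on 0 to 2 bound reads each.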

How the data were processed

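RNA-seq libraries (TruSeq RNA v2 kit, which keeps no strand, 50 bp single-end reads) were made by the authors from 3 biological replicates per group. The deposited expression values are on a log2 scale, corrected by the authors for gene length and library depth, and genes without reads carry a small floor value. The submitters' processing notes name Trim Galore 0.3.5, TopHat2 2.0.11 and GRCm38; the sources used here do not name the counting tool. The deposited ChIP-seq table holds log2 reads per 2-kb bin, scaled by the authors to the deepest library (GRCm38). RRBS and ChIP-BS files are mapped to NCBIM37, a build with no annotation here, and were not used.

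All 12 RNA libraries entered 1 limma fit (limma 3.58.1, R 4.3.3, empirical Bayes with trend) by group, over 11376 genes with a mean log2 value of 0 or more. Genes were called at an adjusted p under 0.05 (Benjamini-Hochberg over all genes tested). Fold changes are 2 to the power of the log2 change. On simulated data for the 72 h comparison (11376 genes), the fit recovered 20 of 100 genes changed by 0.5 and 65 of 100 changed by 1, with 4 false calls. No other simulated gene was changed, and the noise was independent between libraries, whereas 5743 genes were called at 72 h in the data. With so few changed genes the adjustment is stricter than in the data, so these rates do not give the recovery there. H3K9me2 ratios sum all bins that share at least 1 base with the gene.

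Whether replicate numbers pair the samples was checked by correlating same-numbered deviations from group means over genes. Every pair was over 0.1 for serum with 6 h (0.40, 0.26 and 0.66), serum with 24 h (0.33, 0.13 and 0.54) and 6 with 72 h (0.11, 0.18 and 0.58; not compared here), where the pairing is thus taken from the data. It was not for serum with 72 h (0.05, 0.38 and 0.47), 6 with 24 h (0.52, 0.04 and 0.59) or 24 with 72 h (-0.32, 0.63 and 0.85).

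The 10 genes and the other lists were chosen with earlier results of these data known. All 10 are named, with 4 regulators (Nfe2l2, Keap1, Bach1 and Mtf1; Maff, Mafg, Cul3 and Nfe2l1 were added after their values were seen), up to 3 called genes of each other pathway list with the largest change at 72 h, and the nearest genes in pattern. Lef1, T, Sp5, Axin2, Nanog, Lin28a, Slc39a6, Slc39a7, Slc39a8 and Slc39a14 were also named after their values were seen. Alternatives covered scaling, filters, the variance model, a replicate block and each library left out.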

Additional observations from a re-analysis of the deposited data

How the results depend on the processing

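Over the alternatives, 949 of 1085 single-gene values, against serum and between consecutive times, were counted as the same in sign and call as in the report. With the sign kept, 63 lost a call and 46 gained one, and 27 changed sign, some of which lost a call as well. The 949 include values of Slc7a11, which had no main call and entered only through the fit with no filter. Of these 27, 2 passed the threshold, both for Mt2 between 6 and 24 h, at -0.55 with quantile normalization and -0.38 with the span trend removed. Many alternatives could not change a sign. Other filters, variance models, the minimum change, the block and the fit of only 6 libraries leave the change itself as it was. So does leaving out a library of a group not compared. The share with the same sign is thus no measure of how stable the signs are. With the replicate number as a block, 5 of the genes were then called at 6 h and 3 between 24 and 72 h (Gclm, Mt1 and Mt2). Hmox1 was called lower at 72 h (adjusted p = 0.0359, limma) and Nqo1 between 6 and 24 h, and the block changed no other call of the 10 genes. By the check of same-numbered deviations above, the numbers did not pair serum with 72 h, 6 with 24 h or 24 with 72 h. The block fit held all these groups at once, so its calls at 6 h rest in part on them too. Without replicate 3 of every group, tried after the data were seen, 5 were called at 6 h and 3 between 24 and 72 h, the median change at 24 h was 0.14, and Nqo1 changed by -0.050 between 24 and 72 h. Quantile normalization gave 5 calls at 6 h and 4 between 24 and 72 h, and turned the steps of Mt1 (-0.025) and Gsta4 (-0.070) from 6 to 24 h and of Hmox1 (0.076) and Txnrd1 (0.14) from 24 to 72 h. With the span trend removed these were 4 and 4, the median at 24 h was -0.10, and Nqo1 and Srxn1 changed sign at 24 h (-0.038 and -0.051), as did Hmox1 between 24 and 72 h (0.20). Fitting only the 6 libraries compared gave 8 calls at 6 h (3239 over all genes), 3 at 24 h and 0 between 24 and 72 h. Requiring a change of 1 or more left 0, 1 and 2 of the genes at 6, 24 and 72 h, 0 between 6 and 24 h and 0 between 24 and 72 h, and 463, 2850 and 2038 over all genes. On the scale of log2 of the value plus 1 the median change was 0.32 at 6 h and 0.16 at 72 h. Leaving out 1 library at a time, 2 to 6 genes were called at 6 h, 3 to 6 at 24 h and 0 to 2 between 24 and 72 h, and all genes called at 6 h numbered 1042 to 2115. The median at 24 h then ranged from -0.16 to 0.21, Nqo1 at 24 h from -0.11 to 0.48 and at 72 h from 0.11 to 0.43, Gclm at 24 h from -0.20 to 0.021 and Gsta4 at 6 h from -0.076 to 0.17. Between 24 and 72 h the ranges that crossed 0 were -0.095 to 0.049 for Hmox1, -0.19 to 0.39 for Nqo1, -0.19 to 0.045 for Gclc, -0.042 to 0.14 for Srxn1, -0.11 to 0.027 for Txnrd1 and -0.14 to 0.27 for Gsta4. The median difference in H3K9me2 between LT2i and serum, -0.88, was 0.15 over the start bin alone, which holds 0 to 15 bound reads (0 or 1 for Mt1 and Mt2) and where the median of all genes was -0.12, and -1.27 with bins without reads counted as 0, tried after the data were seen. Where not given, the cause was not tested. The depth of the RNA libraries is unknown, which limits Slc7a11 most.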
